A study of Mus musculus with 30 samples.

Results

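T cell receptor signalling genes were described here as a set of 36 members: the invariant chains of the receptor, the kinases and phosphatases next to it, its adaptors, the enzymes and transcription factors it drives, the proteins that dampen it and 3 surface proteins that tune it. They were listed by symbol. The 36 members were found in all of the count tables, among 47348 gene symbols listed in at least 1 of them. Each member passed the filter on low counts in every comparison described, so 36 of 36 were tested throughout.

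The libraries were bulk RNA sequencing of T cells sorted by flow cytometry from C57BL/6 mice. In the Prmt5 conditional knockout group (CKO) the labels give the genotype CD4-Cre+ PRMT5fl/fl, in which Cre driven by CD4 removes floxed Prmt5, the gene of an arginine methyltransferase that acts on histones and splicing proteins, from thymocytes and the T cells they give rise to. The control group (WT) is labelled wild type, and since no control carries the Cre transgene by itself, what Cre does cannot be told apart from what losing Prmt5 does. Each genotype had 3 libraries in each of 5 populations: thymus double-positive cells (DP, with both CD4 and CD8), thymus CD4 single-positive cells (CD4 SP), thymus CD8 single-positive cells (CD8 SP), spleen CD4 cells and spleen CD8 cells. Spleen CD4 and CD8 libraries share numbers in their titles (CKO 65, 68 and 72; WT 67, 70 and 71), and so do thymus DP and CD4 SP libraries (CKO 14, 17 and 23; WT 15, 18 and 24). The labels do not say that a number names a mouse. Thymus CD8 SP libraries are numbered 1, 2 and 3 in each genotype. No age is given in the labels.

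When the receptor binds its ligand, the kinase Lck phosphorylates the CD3 and zeta chains, Zap70 docks on them and phosphorylates the scaffold Lat, and the complex on Lat brings in phospholipase C and exchange factors for Ras. Calcium then drives NFAT factors into the nucleus, while diacylglycerol acts on the Ras and NF-kappaB branches. The phosphatase CD45, encoded by Ptprc, and the kinase Csk set the activity of Lck from opposite sides, and the same pathway decides which thymocytes survive selection and how readily mature T cells respond.

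Among the members called higher in CKO cells of both spleen populations, Lck, Ptprc and Plcg1 had the largest mean log2 fold change over both, and their start-site windows are printed because the genotype results below turn on them. Each holds 250 bases before and 50 bases after an annotated start in RefSeq (GRCm38.p6), 5′ to 3′ on the gene's strand. Lck has a start nearer its coding part and a distal one, and of the overlapping Ptprc windows the one farther upstream is given. Capitals mark matches to TGTGGT or its reverse complement ACCACA, the core letters of RUNX motifs, and to GGAAGT or its reverse complement ACTTCC, core letters of many ETS motifs.
Lck proximal, chr4:129558323-129558622, minus strand: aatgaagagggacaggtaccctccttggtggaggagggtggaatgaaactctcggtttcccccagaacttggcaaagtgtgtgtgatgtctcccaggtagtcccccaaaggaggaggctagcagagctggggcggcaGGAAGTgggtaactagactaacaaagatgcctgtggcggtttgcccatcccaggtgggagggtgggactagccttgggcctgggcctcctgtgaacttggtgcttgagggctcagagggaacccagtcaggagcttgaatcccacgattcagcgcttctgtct
Lck distal, chr4:129573592-129573891, minus strand: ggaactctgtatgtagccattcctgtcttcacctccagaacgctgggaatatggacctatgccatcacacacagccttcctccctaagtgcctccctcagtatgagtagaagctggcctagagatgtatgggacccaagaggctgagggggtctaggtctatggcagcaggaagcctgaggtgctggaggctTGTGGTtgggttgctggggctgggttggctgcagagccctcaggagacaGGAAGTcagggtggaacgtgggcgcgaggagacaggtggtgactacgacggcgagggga
Ptprc, chr1:138175256-138175555, minus strand: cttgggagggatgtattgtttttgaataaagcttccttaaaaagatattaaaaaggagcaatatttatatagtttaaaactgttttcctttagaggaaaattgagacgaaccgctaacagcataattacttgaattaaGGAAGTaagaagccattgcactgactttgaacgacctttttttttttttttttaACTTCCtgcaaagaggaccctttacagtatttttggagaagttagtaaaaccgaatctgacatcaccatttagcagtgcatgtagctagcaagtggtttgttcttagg
Plcg1, chr2:160731060-160731359, plus strand: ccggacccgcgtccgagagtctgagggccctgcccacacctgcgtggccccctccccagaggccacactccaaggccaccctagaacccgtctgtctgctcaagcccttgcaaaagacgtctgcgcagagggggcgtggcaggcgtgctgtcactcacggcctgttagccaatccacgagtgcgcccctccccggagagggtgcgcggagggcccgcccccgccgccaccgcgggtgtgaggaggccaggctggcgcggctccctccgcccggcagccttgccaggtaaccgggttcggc
The RUNX letters occurred once in the distal Lck window and in 6 of 46 windows of the 31 members with an entry (13%), beside 16.8% of 32851 windows of mouse genes. The ETS letters occurred in 22 of 46 member windows (47.8%), beside 23.8% of the 32851. These are matches of letters on either strand; they locate no bound factor.

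Spleen CD8 libraries held 25426449 to 27192847 counts and spleen CD4 libraries 24729146 to 27137018. Of the thymus libraries, CD8 SP held 28721963 to 35353441, CD4 SP 11865646 to 22881226 and DP 13032992 to 18576401 counts. Prmt5 was lower in CKO cells and passed the test in 4 of 5 populations. Its log2 fold change was -1.09 ± 0.09 (SE) in DP (adjusted p = 8.45e-04) and -0.99 ± 0.27 in CD4 SP (adjusted p = 0.958). The values were -0.31 ± 0.05 in CD8 SP (adjusted p = 0.0450), -0.97 ± 0.10 in spleen CD4 (adjusted p = 1.09e-04) and -0.87 ± 0.12 in spleen CD8 (adjusted p = 8.29e-04). Cd4 and Cd8a followed the sort labels in DP, CD8 SP and spleen. Thymus CD4 SP libraries did not: Cd8a stood at 2207, 43.4 and 967 CPM in CKO 14, 17 and 23, and at 1233, 1134 and 1543 CPM in WT 15, 18 and 24. Of the 6 libraries 5 therefore carried Cd8a RNA that a CD4 single-positive cell should lack. Libraries CKO 14 and CKO 17 of that population also stood apart in gene length and in stage markers, as described below. CD8 SP libraries held RNA of the genes listed for the DP stage too, summing to 2792 to 3048 CPM in CKO and 2474 to 2772 CPM in WT. Cd4 was low in these CD8 SP libraries, at 46.1, 55.8 and 44.8 CPM in CKO and 36.6, 38.7 and 36.4 CPM in WT. Cd8a there stood at 867, 990 and 839 CPM in CKO and 840, 921 and 865 CPM in WT. Genes of dividing cells in the CD8 SP libraries summed to 4972 to 5127 CPM in CKO and 4377 to 4878 CPM in WT. Which cells carried this RNA, and their part in the CD8 SP results, was not tested. Sex, read from Ddx3y, was female in all spleen libraries, matched between genotypes in DP and CD4 SP (1 male in each group), and unequal in CD8 SP, with 1 male of 3 CKO and 3 males of 3 WT.

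In the spleen a part of the signalling set differed between genotypes, and in the thymus no member passed the test. In spleen CD4 cells 9 members were higher and 4 lower in CKO cells, in a comparison where 8.53% of 14292 genes were called higher and 5.63% lower, 14.2% in all, against 36.1% of the members. In spleen CD8 cells 8 members were higher and 1 lower, beside 9.83% of 13917 genes higher and 6.22% lower, 16.1% in all, against 25% of the members. The counts of thymus members were 0 higher and 0 lower in each population. Called over all genes were 0.0172% higher and 0.00860% lower in DP (0.0258% of 11634), 0% in either direction in CD4 SP (of 11839), and 0.0335% higher and 0.0805% lower in CD8 SP (0.114% of 14911). A call is an adjusted p under 0.05 in edgeR's quasi-likelihood test over all genes of a population, 3 libraries against 3, and levels are in CPM, in which each count is scaled to its library's total. The CKO libraries lay above every WT library for 12 members and below for 9 in spleen CD4 cells, beside 16.5% and 16.5% of all genes. In spleen CD8 cells they lay above for 14 and below for 4, beside 20.1% and 14.5%. The members did not shift as a block: their median log2 fold change was 0.0137 in spleen CD4 cells, beside -0.0057 over all genes tested, and 0.0296 in spleen CD8 cells, beside -0.0125. In bulk libraries a change in the number of cells of a type and a change in RNA per cell cannot be told apart. The labels do not say whether the libraries came from separate mice, litters or sort days, so p-values measure the spread between these libraries, which may be technical.

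**Figure D1:**
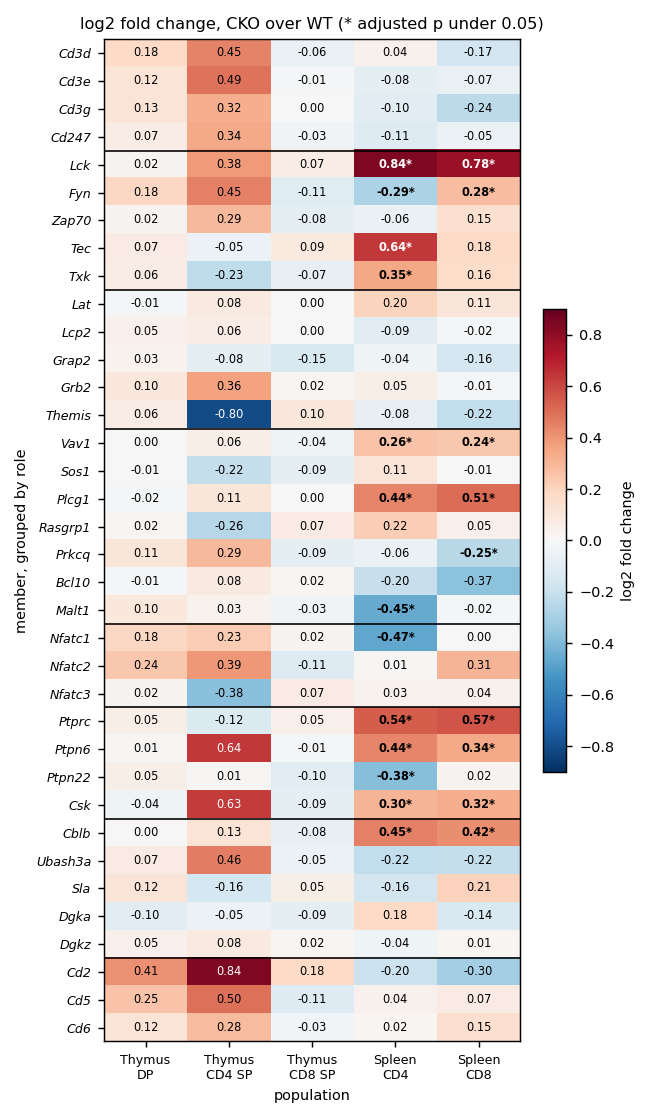
Log2 fold change of CKO over WT for the 36 members (rows, grouped by role) in the 5 populations (columns), from edgeR with 3 libraries per genotype; stars mark an adjusted p under 0.05. The stars stand in both spleen columns and in no thymus column, and Lck holds the deepest red of the starred cells, at 0.84 in spleen CD4 and 0.78 in spleen CD8.

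The invariant chains carry the receptor's signal across the membrane, through motifs that Lck phosphorylates. None of the 4 passed in either spleen population. Cd3e, the epsilon chain, stood at 451, 431 and 436 CPM in CKO and 488, 444 and 475 CPM in WT libraries of CD4 cells. For CD8 cells the levels were 546, 492 and 463 CPM in CKO and 542, 505 and 501 CPM in WT libraries. Cd3g, the gamma chain, had 338, 295 and 262 CPM in CKO and 385, 334 and 319 CPM in WT libraries in CD8 cells. The log2 fold change was -0.24 ± 0.096 (adjusted p = 0.121). Values here and below follow the order of numbers 65, 68 and 72 for CKO and 67, 70 and 71 for WT, and the genotypes overlapped for both chains in CD8 cells. Cd247, the zeta chain, had 334, 307 and 312 CPM in CKO and 337, 341 and 362 CPM in WT libraries of CD4 cells. The CD8 libraries held 279, 245 and 254 CPM in CKO and 279, 263 and 253 CPM in WT libraries. In CD4 cells the Cd247 groups did not overlap, with CKO below WT, without passing the test. This gave a log2 fold change of -0.11 ± 0.061 (adjusted p = 0.243). Cd3d, the delta chain, had 255, 232 and 258 CPM in CKO and 231, 233 and 265 CPM in WT libraries of CD4 cells. In CD8 cells it stood at 298, 263 and 249 CPM in CKO and 322, 287 and 291 CPM in WT libraries. On the log2 scale the difference was -0.17 ± 0.077 (adjusted p = 0.155).

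Among the kinases, Lck had the largest fold of the members called higher in either population. Lck, the Src family kinase bound to CD4 and CD8 that starts signalling, stood at 703, 765 and 734 CPM in CKO and 422, 380.0 and 437 CPM in WT libraries. The lowest CKO library was above the highest WT library. CKO over WT was 0.84 ± 0.074 in log2 units (adjusted p = 2.93e-05). That is a fold of 1.79 (95% interval 1.62 to 1.98). In CD8 cells Lck was at 753, 765 and 710.1 CPM in CKO and 464, 389.5 and 427 CPM in WT libraries. The fitted log2 difference was 0.78 ± 0.075 (adjusted p = 1.52e-04). Its fold there was 1.71 (95% interval 1.55 to 1.90). Fyn, the second Src family kinase of T cells, went in opposite directions. It was lower in CD4 cells, at 407, 417 and 413 CPM in CKO and 499.7, 480.2 and 539 CPM in WT libraries. In log2 units CKO minus WT was -0.29 ± 0.065 (adjusted p = 0.0125). In CD8 cells it was higher, at 469, 468 and 504 CPM in CKO and 380.3, 401 and 389.7 CPM in WT libraries. Between genotypes the log2 difference was 0.28 ± 0.065 (adjusted p = 0.0155). This call was lost in 4 of the 6 fits that left out 1 library (WT 67, WT 70, WT 71 or CKO 72), with adjusted p up to 0.0715. The genotypes did not overlap for Fyn in either population. Tec, a Tec family kinase of low level here, rose in CD4 cells, with 22.4, 19.5 and 25.1 CPM in CKO and 14.2, 15.6 and 13.7 CPM in WT libraries. The log2 fold change was 0.64 ± 0.12 (adjusted p = 0.00472). In CD8 cells Tec stood at 34.3, 30.99 and 30.6 CPM in CKO and 28.5, 27.2 and 27.6 CPM in WT libraries. This gave a log2 fold change of 0.18 ± 0.088 (adjusted p = 0.198). Txk, another Tec family kinase, rose in CD4 cells, at 149, 144 and 134 CPM in CKO and 108, 115 and 115 CPM in WT libraries. On the log2 scale the difference was 0.35 ± 0.064 (adjusted p = 0.00423). Its CD8 levels were 169, 166 and 151 CPM in CKO and 130.4, 150.0 and 146 CPM in WT libraries. CKO over WT was 0.16 ± 0.075 in log2 units (adjusted p = 0.17). For both Tec family members the CD8 groups also did not overlap, without passing the test. Zap70, the kinase that docks on phosphorylated receptor chains, had 298, 282 and 293 CPM in CKO and 297, 287 and 332 CPM in WT libraries, where the groups overlapped. Its CD8 levels were 298, 291 and 294 CPM in CKO and 259, 251 and 274 CPM in WT libraries. The fitted log2 difference was 0.15 ± 0.064 (adjusted p = 0.149). There each CKO library was above each WT library.

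None of the 5 adaptors passed in the spleen. Lat, the membrane scaffold of the complex, came nearest in CD4 cells, with 547, 570.3 and 599 CPM in CKO and 494, 472 and 537 CPM in WT libraries. In log2 units CKO minus WT was 0.20 ± 0.071 (adjusted p = 0.0811). In CD8 cells Lat had 505, 502 and 458 CPM in CKO and 481, 417 and 438 CPM in WT libraries, and the groups overlapped. Themis, a regulator of signal strength in thymocytes, had 269.7, 231 and 253 CPM in CKO and 294, 285 and 285 CPM in WT libraries in CD8 cells. Every CKO library was below every WT library there, and the adjusted p of 0.0501 for the log2 fold change of -0.22 ± 0.068 fell just outside the threshold; it passed in 5 of 11 alternative fits. In CD4 cells Themis had 213, 193 and 190.2 CPM in CKO and 219, 209.7 and 203 CPM in WT libraries. Lcp2, which links Lat to Vav1, had 341, 293 and 347 CPM in CKO and 342, 331 and 379.8 CPM in WT libraries of CD4 cells. CD8 levels were 281, 237 and 267 CPM in CKO and 265, 261 and 258 CPM in WT libraries. Grap2, which holds Lcp2 to Lat, had 152, 157 and 136 CPM in CKO and 153, 162 and 146 CPM in WT libraries of CD4 cells. The CD8 libraries held 189, 191 and 166 CPM in CKO and 186, 197 and 216 CPM in WT libraries. The genotypes overlapped for both linkers in both populations. Grb2, which brings Sos1 to Lat, stayed between 136 and 179 CPM in the 12 spleen libraries.

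The effector enzymes below Lat moved in both directions. Plcg1, the phospholipase that makes diacylglycerol and the signal for calcium release, rose in CD4 cells, at 503, 552 and 501 CPM in CKO and 386, 383 and 386 CPM in WT libraries. Between genotypes the log2 difference was 0.44 ± 0.067 (adjusted p = 0.00125). In CD8 cells it rose as well, at 473, 514 and 451 CPM in CKO and 324, 329.8 and 343 CPM in WT libraries. The log2 fold change was 0.51 ± 0.070 (adjusted p = 8.65e-04). The 3 WT libraries of CD4 cells lay within 3 CPM of each other, and the lowest CKO library of either population was above the highest WT library. Vav1, an exchange factor for Rac, had 276, 280.2 and 296 CPM in CKO and 246, 235 and 237 CPM in WT libraries. This gave a log2 fold change of 0.26 ± 0.064 (adjusted p = 0.0194). Its CD8 levels were 283, 279 and 295 CPM in CKO and 242, 230.4 and 241 CPM in WT libraries. On the log2 scale the difference was 0.24 ± 0.065 (adjusted p = 0.0274). The Vav1 groups did not overlap in either population, but the calls depended on single libraries: they were lost in CD4 cells without WT 70, WT 71 or CKO 72 (adjusted p up to 0.0912) and in CD8 cells without WT 67, WT 70, WT 71 or CKO 72 (adjusted p up to 0.133). Malt1, the paralogue of caspases that works with Bcl10 in NF-kappaB activation, fell in CD4 cells, at 219, 223 and 229.9 CPM in CKO and 269, 293 and 365 CPM in WT libraries. CKO over WT was -0.45 ± 0.095 in log2 units (adjusted p = 0.00827). In CD8 cells the Malt1 groups overlapped, at 237, 306 and 339.7 CPM in CKO and 253, 306 and 324 CPM in WT libraries. Bcl10, its partner, did not pass but lay lower in each CKO library, by a narrow margin in CD4 cells, with 78.8, 98.03 and 102 CPM in CKO and 108, 102 and 113 CPM in WT libraries. The fitted log2 difference was -0.20 ± 0.097 (adjusted p = 0.192). Its CD8 levels were 79.03, 119 and 102 CPM in CKO and 126, 124 and 131 CPM in WT libraries. In log2 units CKO minus WT was -0.37 ± 0.13 (adjusted p = 0.0804). Prkcq, protein kinase C theta, which sits upstream of both, fell in CD8 cells, at 444, 445 and 436 CPM in CKO and 512, 519.7 and 516 CPM in WT libraries. Between genotypes the log2 difference was -0.25 ± 0.058 (adjusted p = 0.015). The call was lost without WT 70 or WT 71 (adjusted p up to 0.0682). In CD4 cells Prkcq overlapped between genotypes, at 453, 486 and 447 CPM in CKO and 487, 474 and 497 CPM in WT libraries. Rasgrp1, the diacylglycerol-driven exchange factor for Ras, had 816, 769.5 and 729 CPM in CKO and 707, 682 and 608 CPM in WT libraries of CD4 cells. The log2 fold change was 0.22 ± 0.075 (adjusted p = 0.0709). In CD8 cells the groups overlapped, at 595, 557 and 509 CPM in CKO and 522, 550.2 and 509.7 CPM in WT libraries. Sos1, the exchange factor carried by Grb2, stayed between 90.8 and 132 CPM, with overlapping groups in both populations.

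Of the NFAT transcription factors, which calcineurin sends to the nucleus, Nfatc1 fell in CD4 cells. It had 234, 209 and 208 CPM in CKO and 300.3, 289.7 and 318 CPM in WT libraries. This gave a log2 fold change of -0.47 ± 0.066 (adjusted p = 7.15e-04). In CD8 cells Nfatc1 overlapped between genotypes, at 245, 203 and 232 CPM in CKO and 198, 237 and 237 CPM in WT libraries. On the log2 scale the difference was -0.0030 ± 0.089 (adjusted p = 0.984). Nfatc2, an NFAT of resting T cells, had 153, 143 and 184 CPM in CKO and 112, 138 and 133 CPM in WT libraries in CD8 cells. CKO over WT was 0.31 ± 0.11 in log2 units (adjusted p = 0.0793). The CD4 libraries held 183, 149.8 and 182 CPM in CKO and 172, 189 and 153 CPM in WT libraries. The CD8 groups of Nfatc2 did not overlap, and the CD4 groups did. Nfatc3, an NFAT also used by thymocytes, stayed between 448 and 552 CPM with overlapping groups in both populations.

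The phosphatases and the kinase that hold Lck in check or release it were the members called most often: 3 of 4 rose and 1 fell in CD4 cells, and 3 of 4 rose in CD8 cells. Ptprc, which encodes CD45, the phosphatase that removes the inhibitory phosphate from Lck, had 4401, 4761 and 4378 CPM in CKO and 3182, 3006 and 3180.0 CPM in WT libraries. The fitted log2 difference was 0.54 ± 0.069 (adjusted p = 3.87e-04). Its CD8 levels were 4853, 5159 and 4924 CPM in CKO and 3309, 3265 and 3341 CPM in WT libraries. In log2 units CKO minus WT was 0.57 ± 0.057 (adjusted p = 1.68e-04). The genotypes did not overlap in either population. Csk, the kinase that adds that phosphate, rose as well, at 401, 386 and 411 CPM in CKO and 335, 312 and 330.0 CPM in WT libraries. Between genotypes the log2 difference was 0.30 ± 0.063 (adjusted p = 0.00794). This call missed the threshold without WT 70 (adjusted p = 0.051). In CD8 cells Csk had 372, 350.1 and 351 CPM in CKO and 295, 272 and 277 CPM in WT libraries. The log2 fold change was 0.32 ± 0.063 (adjusted p = 0.00596). Ptpn6, a phosphatase recruited by inhibitory receptors, had 267, 258 and 319 CPM in CKO and 223, 189.7 and 214 CPM in WT libraries. This gave a log2 fold change of 0.44 ± 0.092 (adjusted p = 0.00827). In CD8 cells it had 317, 269 and 336 CPM in CKO and 249.8, 226 and 239 CPM in WT libraries. On the log2 scale the difference was 0.34 ± 0.087 (adjusted p = 0.0215). It lost the call without WT 70, WT 71 or CKO 72 (adjusted p up to 0.0999). CKO 68 gave the lowest Ptpn6 level of the CKO libraries and CKO 72 the highest, in both populations. Ptpn22, the phosphatase that partners with Csk, fell in CD4 cells, at 119, 104 and 110.4 CPM in CKO and 137, 158 and 144 CPM in WT libraries. CKO over WT was -0.38 ± 0.071 in log2 units (adjusted p = 0.00423). It overlapped between genotypes in CD8 cells, at 209, 213 and 239 CPM in CKO and 202, 229 and 209 CPM in WT libraries.

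Among the dampeners, Cblb, a ubiquitin ligase that limits signalling without costimulation, was the member that passed. It rose in CD4 cells, at 319, 351 and 351 CPM in CKO and 254, 248 and 249.8 CPM in WT libraries. The fitted log2 difference was 0.45 ± 0.068 (adjusted p = 0.00115). In CD8 cells it had 299, 328 and 318 CPM in CKO and 205, 232 and 258 CPM in WT libraries. In log2 units CKO minus WT was 0.42 ± 0.089 (adjusted p = 0.00912). Ubash3a, a suppressor of signalling that acts on Zap70, was lower in every CKO library of both populations, at 143, 119.6 and 127 CPM in CKO and 154, 154 and 149 CPM in WT libraries of CD4 cells. The CD8 libraries held 118, 96.6 and 112 CPM in CKO and 123, 123 and 126 CPM in WT libraries. Neither passed. The log2 fold changes were -0.22 ± 0.078 in CD8 cells (adjusted p = 0.0871) and -0.22 ± 0.069 in CD4 cells (adjusted p = 0.0524). The CD4 difference passed in 5 of 11 alternative fits. Sla, an adaptor that helps remove the receptor from the surface, had 231, 198 and 230.1 CPM in CKO and 241, 237 and 265 CPM in WT libraries of CD4 cells. In the CD8 population it had 223, 239.8 and 273 CPM in CKO and 225, 203 and 201 CPM in WT libraries. It lay below WT in the CD4 population and overlapped in the CD8 population. In CD4 cells the log2 fold change was -0.16 ± 0.073 (adjusted p = 0.171). The diacylglycerol kinases, which remove the second messenger, did not pass. Dgka had 1957, 1979 and 1828 CPM in CKO and 1716, 1693 and 1725 CPM in WT libraries of CD4 cells. Between genotypes the log2 difference was 0.18 ± 0.063 (adjusted p = 0.0861). Among CD8 cells its levels were 1459, 1324 and 1245 CPM in CKO and 1469, 1457 and 1440.0 CPM in WT libraries. The log2 fold change was -0.14 ± 0.062 (adjusted p = 0.158). Dgkz had 695, 692 and 679.5 CPM in CKO and 737, 707 and 698 CPM in WT libraries of CD4 cells. The CD8 libraries held 577, 540.4 and 517 CPM in CKO and 535, 542 and 515 CPM in WT libraries. In CD4 cells each CKO library was above WT for Dgka and below WT for Dgkz, and in CD8 cells the genotypes overlapped for both.

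The surface proteins Cd5 and Cd6, which carry inhibitory motifs, and Cd2, an adhesion receptor, did not pass in the spleen. Cd5 had 436, 427 and 378 CPM in CKO and 416, 387 and 415 CPM in WT libraries of CD4 cells. CD8 cells gave 202, 185 and 185 CPM in CKO and 183, 177 and 176 CPM in WT libraries. Cd6 had 489, 550.1 and 483 CPM in CKO and 525, 493 and 496 CPM in WT libraries of CD4 cells. The CD8 libraries held 359, 386 and 368 CPM in CKO and 343, 325 and 321 CPM in WT libraries. In CD8 cells the groups did not overlap for either. For Cd5 the log2 fold change was 0.071 ± 0.064 (adjusted p = 0.504) and for Cd6 0.15 ± 0.067 (adjusted p = 0.163). Cd2 was counted at 4.56 to 7.48 CPM in spleen libraries and 1.31 to 2.298 CPM in thymus CD8 SP libraries, as deposited in those tables. In the separate table of DP and CD4 SP libraries it stood at 46.04 to 498 CPM. Levels were not compared across tables, and whether counting differed for this gene was not tested.

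Lck, Ptprc, Plcg1, Csk, Cblb, Ptpn6 and Vav1 were higher in CKO cells of both spleen populations. That is 7 of the 9 members called higher in CD4 cells and 7 of the 8 called higher in CD8 cells, and the members called lower shared 0. The share of all genes called in both populations was not counted, so the overlap is not read as a trait of the members. The libraries of both populations carry the same numbers, so the overlap cannot be counted as coming from separate animals. In GRCm38 (GENCODE M21) these genes lie at chr4:129548344-129573641 (Lck, minus strand), chr1:138062861-138175708 (Ptprc, minus strand), chr2:160731300-160775760 (Plcg1, plus strand), chr9:57626646-57653631 (Csk, minus strand), chr16:52031225-52208048 (Cblb, plus strand), chr6:124720707-124738714 (Ptpn6, minus strand) and chr17:57279100-57328031 (Vav1, plus strand). Plcg1 and Ptpn6 are among 9 members that share exon bases with a gene on the opposite strand. How reads in those shared bases were counted cannot be told. The strand setting of the counting is not given in the sources used here.

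**Figure D2:**
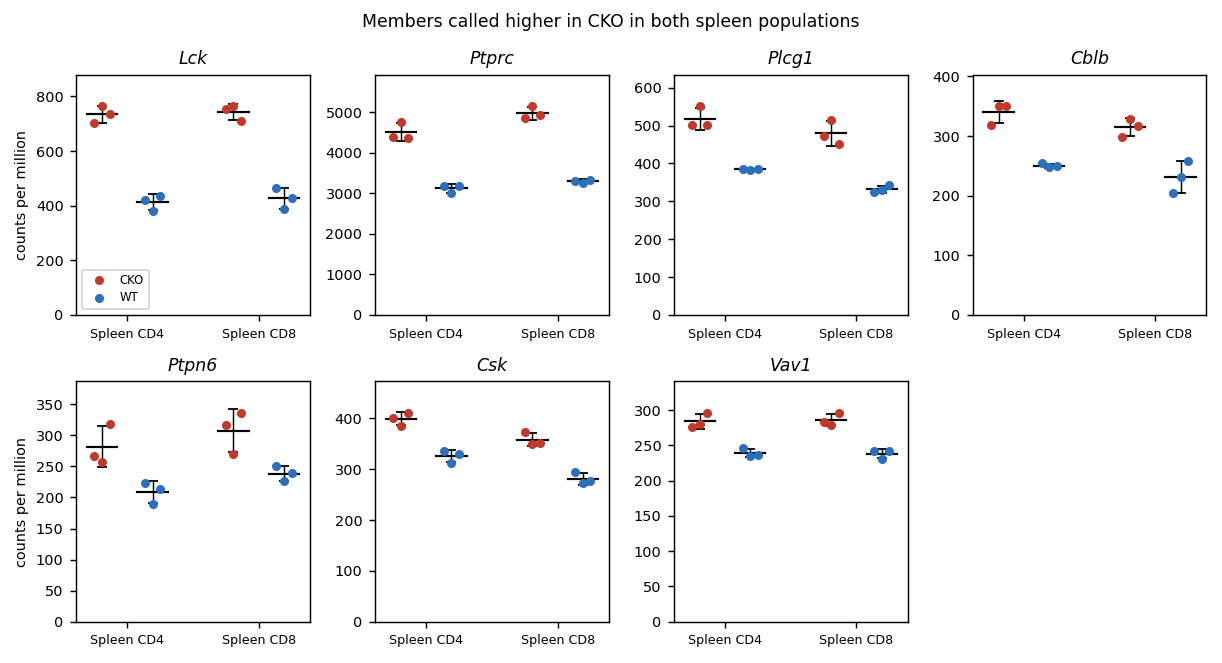
CPM of the 7 members higher in CKO in both spleen populations, 1 point per library, CKO (red) left of WT (blue); the bar is the mean and the whisker the SD of 3 libraries, and each vertical axis starts at 0. In every panel the red points lie above the blue points of the same population, with the largest ratio of means for Lck.

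Whether the genotype effect differed between CD8 and CD4 cells was tested as an interaction over the 12 spleen libraries. It called 2 members higher and 1 lower, where 1.81% of 14958 genes were higher and 0.749% lower, 2.56% in all. Fyn had the clearest difference: the CKO effect in CD8 cells minus that in CD4 cells was 0.56 ± 0.085 (adjusted p = 0.00206), and the call was kept in 17 of 17 alternative fits. Nfatc1 followed with 0.47 ± 0.11 (adjusted p = 0.0411) and Dgka with -0.32 ± 0.081 (adjusted p = 0.0496). Nfatc1 lost its call in 9 of 17 alternative fits (adjusted p up to 0.0983) and Dgka in 13 of 17 (adjusted p up to 0.147). The Dgka groups point in opposite directions in the CD8 and CD4 populations, although neither passed alone. With the library number as a block, 5 members were higher and 2 lower. The higher ones were Fyn (0.56, adjusted p = 1e-04), Nfatc1 (0.47, adjusted p = 0.00222), Ptpn22 (0.40, adjusted p = 0.00435), Malt1 (0.41, adjusted p = 0.0176) and Sla (0.36, adjusted p = 0.0224). The lower ones were Dgka (-0.32, adjusted p = 0.00675) and Tec (-0.45, adjusted p = 0.0488). For the 7 members called in both populations, the interaction ran from -0.097 ± 0.14 for Ptpn6 to 0.064 ± 0.091 for Plcg1. Its 95% intervals, as ratios of the CD8 fold to the CD4 fold, were 0.83 to 1.10 for Lck, 0.91 to 1.13 for Ptprc and 0.78 to 1.13 for Ptpn6.

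**Figure D3:**
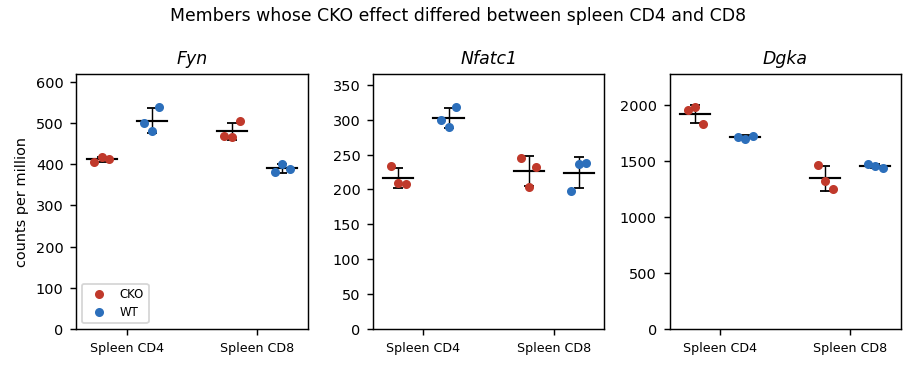
CPM of Fyn, Nfatc1 and Dgka in spleen CD4 and CD8 libraries, 1 point per library, CKO (red) left of WT (blue), with the mean and SD of 3 libraries. Red lies below blue for Fyn in CD4 cells and above it in CD8 cells; for Nfatc1 the genotypes part in CD4 cells and overlap in CD8 cells.

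Markers of cell state and of other cells moved with genotype in the same libraries. In spleen CD8 cells 15 of 16 effector genes were called higher; their summed level was 1441 to 2180 CPM in CKO and 647 to 897 CPM in WT libraries. Of 10 genes of mature thymocytes or naive cells, 7 were lower (5848 to 6186 CPM in CKO, 7243 to 7494 CPM in WT). In the same libraries 6 of 6 genes of dividing cells were higher (304 to 448 CPM in CKO, 134 to 156 CPM in WT). Regulatory T cell genes were higher in 4 of 6 there, at 199 to 219.9 CPM in CKO and 122 to 146 CPM in WT libraries. Ikzf2 made up much of this sum, at 120, 131 and 127 CPM in CKO and 55.4, 47.3 and 68.4 CPM in WT libraries. Foxp3 had 6.58, 5.10 and 4.05 CPM in CKO and 1.99, 1.19 and 3.285 CPM in WT libraries. The genotypes overlapped for Ctla4 and Tnfrsf18 in these CD8 libraries. Myeloid genes summed to 44.2 to 70.8 CPM in CKO and 21.6 to 31.6 CPM in WT libraries there, with 4 of 10 higher. B cell genes summed to 53.7 to 63.6 CPM in CKO and 31.4 to 40.1 CPM in WT libraries, with 1 of 7 tested higher. In spleen CD4 cells 10 of 10 myeloid genes were higher, summing to 125 to 275 CPM in CKO and 74.1 to 106 CPM in WT libraries, and none was at 0. Regulatory T cell genes were lower in 3 of 6 there, at 442 to 500.5 CPM in CKO and 629 to 741 CPM in WT libraries. Foxp3 itself had 107, 122 and 104.5 CPM in CKO and 126, 115 and 114 CPM in WT libraries. B cell genes summed to 16.1 to 22.2 CPM in CKO and 28.8 to 34.1 CPM in WT CD4 libraries, with Ighm at 0 in all of them. NK cell genes summed to 17.8 to 26.2 CPM in CKO and 18.1 to 18.9 CPM in WT CD4 libraries. Of 5 tested there, 3 were higher and 1 lower. Among them Klrb1c had 4.79, 3.83 and 5.34 CPM in CKO and 9.46, 10.9 and 12.3 CPM in WT CD4 libraries. In CD8 libraries the sum was 18.9 to 23.9 CPM in CKO and 6.61 to 11.2 CPM in WT, with 3 of 7 tested higher. CKO 68 had the lowest effector sum (1441 CPM) and myeloid sum (44.2 CPM) of the CKO CD8 libraries, and the lowest myeloid sum (125 CPM) of the CKO CD4 libraries. CKO 68 also gave the highest Lck, Ptprc, Plcg1 and Cblb levels in both populations. Its Ptpn6 and Csk levels were the lowest of the CKO libraries in both populations. Vav1 was lowest in CKO 68 among the CKO CD8 libraries and lay between the others among the CKO CD4 libraries. The part of these cells in the results on the members was not tested.

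Of 94 further genes of the pathway, 93 were tested in the spleen. In CD4 cells 7 were higher and 13 lower, 21.5% of the list, beside 14.2% of all genes (8.53% higher, 5.63% lower). The 4 with the smallest p among the higher ones were Ikbkb, a kinase of the NF-kappaB branch (log2 fold change 0.77 ± 0.070), Pik3cd, the delta isoform of phosphoinositide 3-kinase (0.64 ± 0.070), Cd8b1, the CD8 beta chain (0.82 ± 0.12), and Rasal3, a brake on Ras (0.48 ± 0.081). Those lower were led by Spry1, a feedback inhibitor of Ras signalling (-1.25 ± 0.12), Ptpn11, a phosphatase that promotes Ras signalling (-0.68 ± 0.071), the costimulatory receptor Cd28 (-0.45 ± 0.076) and Prkca, protein kinase C alpha (-0.46 ± 0.080). In CD8 cells 10 were higher and 4 lower, 15.1% of the list and near the 16.1% of all genes called there. The higher ones were led by Ptprj, a receptor phosphatase (2.03 ± 0.19), Ikbkb (0.44 ± 0.070), Vav2, an exchange factor related to Vav1 (0.65 ± 0.13), and Pik3cd (0.38 ± 0.081). The 4 lower there were Pik3ip1, an inhibitor of phosphoinositide 3-kinase (-0.48 ± 0.065), the calcium channel subunit Orai2 (-0.49 ± 0.085), Rhoh, a GTPase needed for Zap70 recruitment (-0.40 ± 0.076), and Spred1, an inhibitor of Ras signalling (-0.41 ± 0.12). Of 12 genes induced by receptor signals, 0 were higher and 4 lower in CD4 cells: Il2ra (-0.50 ± 0.089), Egr2 (-0.77 ± 0.18), Irf4 (-0.67 ± 0.16) and Egr3 (-0.53 ± 0.13). In CD8 cells Il2ra was higher (0.77 ± 0.20), and Egr3 (-0.82 ± 0.19), Egr2 (-0.69 ± 0.20) and Myc (-0.27 ± 0.076) were lower. Il2ra is also among the regulatory T cell genes counted above. Its CD8 levels were low, at 6.43, 5.60 and 4.84 CPM in CKO and 3.64, 3.11 and 2.98 CPM in WT libraries. The difference of the Il2ra effects, CD8 minus CD4 and chosen after its values were seen, was 1.26 ± 0.17 (adjusted p = 9.55e-04). Each of these adjusted p-values was under 0.05, and in the 3 thymus comparisons 0 genes of either list passed.

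In thymus DP cells no member passed. Their log2 fold changes ran from -0.10 for Dgka to 0.41 for Cd2, with a median of 0.0592 beside 0.003 over all genes, and the smallest adjusted p was 0.66. At an unadjusted level, 6 members had a p under 0.05, as did 822 genes, and DESeq2 called 0 members. Cd2 stood at 77.05, 65.9 and 85.9 CPM in CKO and 58.5, 46.04 and 66.9 CPM in WT libraries, where the groups overlapped. Cd5 was at 246, 249.8 and 264 CPM in CKO and 231, 184 and 220.2 CPM in WT libraries. Values here follow the order of numbers 14, 17 and 23 for CKO and 15, 18 and 24 for WT. Fyn had 219, 218 and 217 CPM in CKO and 201, 176 and 196 CPM in WT libraries. Nfatc1 had 152, 167 and 146 CPM in CKO and 137, 135 and 136 CPM in WT libraries. The delta chain gene Cd3d had 414, 388 and 445 CPM in CKO and 367, 356 and 375 CPM in WT libraries. Those 4, Cd5, Fyn, Nfatc1 and Cd3d, were the members whose CKO libraries lay above every WT library, beside 6.58% of all genes, and 0 lay below, beside 5.47%. Lck, the spleen member with the largest fold, overlapped between genotypes at 2708, 2401 and 2792 CPM in CKO and 2572, 2434 and 2754 CPM in WT libraries. Ptprc overlapped too, at 2015, 2120.0 and 2022 CPM in CKO and 2070.0, 1982 and 1868 CPM in WT libraries.

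In thymus CD8 SP cells the range was -0.15 for Grap2 to 0.18 for Cd2, with a median of -0.0201 beside -0.0024 over all genes. The smallest adjusted p of a member was 0.465, 1 member and 1548 genes had an unadjusted p under 0.05, and DESeq2 called 0 members. Lck stood at 495, 495 and 479.9 CPM in CKO and 474, 455 and 464 CPM in WT libraries. Csk was at 306, 315 and 297 CPM in CKO and 324, 320.1 and 327 CPM in WT libraries. Lck lay above WT in every CKO library, by 0.069 ± 0.038 on the log2 scale, and Csk below WT, by -0.091 ± 0.040; 8.85% of genes lay above and 6.88% below in the same way. The 95% interval of the Lck fold, 0.996 to 1.10, stands beside the spleen intervals of 1.55 to 1.90 (CD8 cells) and 1.62 to 1.98 (CD4 cells). These come from libraries with other numbers and a separately deposited table, and the difference was not tested. The Prmt5 log2 fold change was -0.31 ± 0.05 in CD8 SP, -0.87 ± 0.12 in spleen CD8 and -0.97 ± 0.10 in spleen CD4 cells. Prmt5 RNA thus fell by less in CD8 SP cells, and the part of that in the Lck values was not tested. Ptprc overlapped between genotypes, at 1718, 1652 and 1624 CPM in CKO and 1499, 1732 and 1571 CPM in WT libraries. Plcg1 overlapped as well, at 249, 239 and 234 CPM in CKO and 231, 246 and 239 CPM in WT libraries.

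Thymus CD4 SP cells gave wide errors. The log2 fold changes of members ran from -0.80 for Themis to 0.84 for Cd2, with a median of 0.119 beside 0.0205, and the smallest adjusted p was 0.958. In all, 1 member and 306 genes had an unadjusted p under 0.05, and DESeq2 called 0 members. The CKO libraries differed among themselves. Ptprc had 358, 2734 and 2218 CPM in CKO and 2182, 1911 and 1793 CPM in WT libraries. Malt1 had 19.7, 175 and 114 CPM in CKO and 112, 124 and 72.4 CPM in WT libraries. Themis stood at 82.3, 156 and 359 CPM in CKO and 412, 296 and 356 CPM in WT libraries. CKO 14 was lowest of the 6 libraries for each of these long transcripts and highest for short ones such as Lck and Cd3d. Lck had 3820.0, 1213 and 1536 CPM in CKO and 1517, 1645 and 2242 CPM in WT libraries. Cd3d was at 739.6, 384 and 396 CPM in CKO and 346, 438 and 403 CPM in WT libraries. Against the mean of WT, the 12 members with the shortest exon length had a median log2 difference of 0.80 in CKO 14 and the 12 with the longest had -0.91. In CKO 17 these were 0.0232 and 0.22 and in CKO 23 -0.0254 and 0.0315. Over all genes with at least 5 CPM, the longest 20% minus the shortest 20% was -1.06 in CKO 14 and -0.16 to 0.20 in the other 29 libraries. CKO 17 stood apart in another way: genes of the DP stage summed to 462 CPM, against 2854 and 5344 CPM in the other CKO libraries and 2725 to 4627 CPM in WT libraries. CKO 17 was also the only one of the 6 libraries whose Cd8a, at 43.4 CPM, followed the CD4 SP label. With both libraries left out together, a choice made after the data were seen that leaves 1 CKO library, 0 members were called. Cd2 had 444, 498 and 298 CPM in CKO and 227, 273 and 231 CPM in WT libraries. Ubash3a had 135, 119 and 97.7 CPM in CKO and 94.2, 84.4 and 90.9 CPM in WT libraries. These were 2 of the 5 members above WT in every CKO library, beside 3.93% of all genes. The others were Cd3e, Cd3g and Nfatc1, and 0 members lay below, beside 6.12%. No member passed the test of a difference in genotype effect between CD4 SP and DP cells (0% of 12216 genes called, 263 genes and 0 members at an unadjusted p under 0.05, and 0 members by DESeq2).

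**Figure D4:**
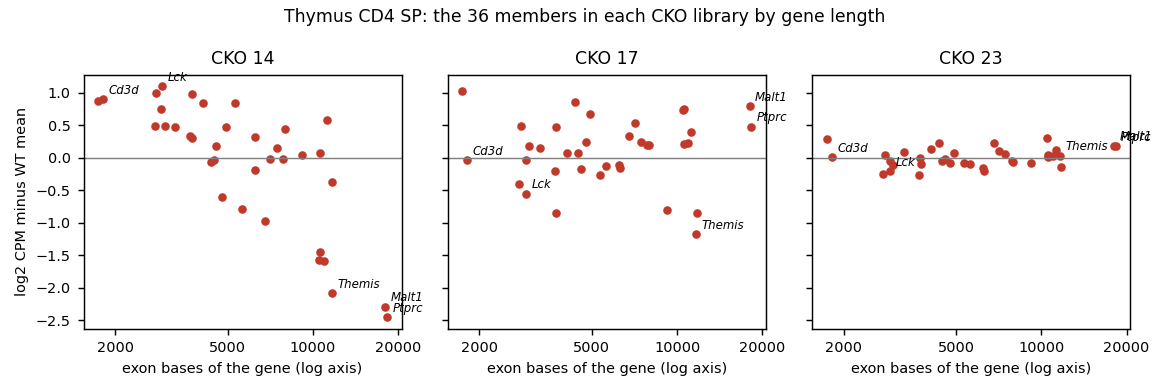
Log2 CPM (with 1 CPM added) of each of the 36 members in the 3 CKO libraries of thymus CD4 SP, minus the mean of the 3 WT libraries, against the exon bases of the gene on a log axis. In CKO 14 the points slope from above 0 for short genes to below -2 for Malt1 and Ptprc; no such slope is seen in CKO 17 or CKO 23.

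Between wild type populations more members were called than between genotypes. In WT spleen, CD8 cells had 9 members higher and 14 lower than CD4 cells, 63.9% of the set, beside 15.3% of 14131 genes higher and 16.5% lower, 31.9% in all. The libraries did not overlap for 11 members above and 17 below, beside 18.9% and 26.8% of genes. The largest difference was Cd5, at 183, 177 and 176 CPM in CD8 and 416, 387 and 415 CPM in CD4 libraries (log2 fold change -1.14 ± 0.057, adjusted p = 2.09e-08). Cd6 was lower too, at 343, 325 and 321 CPM in CD8 and 525, 493 and 496 CPM in CD4 libraries (log2 fold change -0.57 ± 0.058, adjusted p = 1.05e-05). Both stood lower in CD8 cells with no overlap. Tec, at 28.5, 27.2 and 27.6 CPM in CD8 and 14.2, 15.6 and 13.7 CPM in CD4 libraries, led the higher ones (log2 fold change 0.98 ± 0.091, adjusted p = 4.79e-06). Ptpn22 (0.59 ± 0.068), Themis (0.49 ± 0.057), Grap2 (0.42 ± 0.069), Txk (0.38 ± 0.064), Cd3d (0.35 ± 0.070), Bcl10 (0.28 ± 0.059), Ptpn6 (0.23 ± 0.070) and Cd3e (0.18 ± 0.060) were the other members higher in CD8 cells, as log2 fold change ± SE. Also lower in CD8 cells were Nfatc1 (-0.39 ± 0.073), Dgkz (-0.38 ± 0.055), Nfatc2 (-0.38 ± 0.090), Lcp2 (-0.38 ± 0.061), Cd247 (-0.34 ± 0.059) and Fyn (-0.33 ± 0.058). The others lower were Rasgrp1 (-0.29 ± 0.067), Ubash3a (-0.25 ± 0.053), Sla (-0.20 ± 0.066), Dgka (-0.19 ± 0.051), Plcg1 (-0.17 ± 0.053) and Csk (-0.17 ± 0.059). Of these, the calls of Cd3e, Csk, Plcg1, Ptpn6, Sla and Dgka were lost when some single libraries were left out. With the library number as a block Cd3g (0.19, adjusted p = 0.0386) and Sos1 (0.24, adjusted p = 0.0109) were also higher, and Zap70 (-0.18, adjusted p = 0.0173) and Grb2 (-0.15, adjusted p = 0.048) lower. Lck, Ptprc, Cblb and Vav1 did not pass between WT CD8 and CD4 cells, with log2 fold changes of 0.091 ± 0.075 for Lck, 0.12 ± 0.052 for Ptprc, -0.069 ± 0.076 for Cblb and 0.036 ± 0.055 for Vav1. Of the 93 further pathway genes 16 were higher and 28 lower in CD8 cells, 47.3% of them beside 31.9% of all genes, with the smallest p for Cd8b1 (6.43), Cd8a (8.51), Ppp3cc (0.70) and Orai2 (0.58) and, among the lower, for Trat1 (-2.01), Vav2 (-1.98), Ptprj (-1.96) and Cd4 (-7.21).

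From DP to CD4 SP cells of WT thymus, 11 members were higher and 6 lower in CD4 SP cells, 47.2% of the set, beside 21.7% of 11826 genes higher and 18.1% lower, 39.8% in all. The libraries did not overlap for 11 members above and 9 below, beside 27.6% and 24.1% of genes. Cd2 showed the largest difference, at 227, 273 and 231 CPM in CD4 SP and 58.5, 46.04 and 66.9 CPM in DP libraries (log2 fold change 2.07 ± 0.13, adjusted p = 1.28e-07). Cblb stood at 149.7, 133 and 99.1 CPM in CD4 SP and 48.2, 54.1 and 41.1 CPM in DP libraries (log2 fold change 1.41 ± 0.15, adjusted p = 1.34e-05). Fyn was at 528, 525 and 473 CPM in CD4 SP and 201, 176 and 196 CPM in DP libraries (log2 fold change 1.40 ± 0.10, adjusted p = 3.77e-07). For all 11 members higher in CD4 SP cells, no library of one population reached the other. Malt1 had 112, 124 and 72.4 CPM in CD4 SP and 42.5, 44.8 and 40.3 CPM in DP libraries, a log2 fold change of 1.26 ± 0.16. Nfatc2 had 94.04, 89.8 and 100.2 CPM in CD4 SP and 50.3, 41.05 and 46.03 CPM in DP libraries, a log2 fold change of 1.03 ± 0.11. Cd5, whose level follows the strength of receptor signals in the thymus, had 339.5, 352 and 387 CPM in CD4 SP and 231, 184 and 220.2 CPM in DP libraries, a log2 fold change of 0.75 ± 0.11. Nfatc1 had 215, 215 and 209.7 CPM in CD4 SP and 137, 135 and 136 CPM in DP libraries, a log2 fold change of 0.64 ± 0.087. The remaining members higher in CD4 SP cells were Prkcq (0.59 ± 0.091), Txk (0.53 ± 0.13), Bcl10 (0.44 ± 0.10) and Cd6 (0.39 ± 0.10). Prkcq had 308, 305 and 301 CPM in CD4 SP and 213, 195 and 196 CPM in DP libraries. Txk was at 151, 134 and 107 CPM in CD4 SP and 102, 90.4 and 78.1 CPM in DP libraries. The calls of Txk and Cd6 were each lost without 1 DP library (WT 24 for Txk, adjusted p = 0.0562; WT 18 for Cd6, adjusted p = 0.0805). Bcl10 had 119, 111 and 107 CPM in CD4 SP and 74.01, 82.7 and 90.9 CPM in DP libraries. Cd6 was at 535, 576 and 602 CPM in CD4 SP and 463, 396 and 433 CPM in DP libraries. Lower in CD4 SP cells was Nfatc3, at 507, 413 and 585 CPM in CD4 SP and 893, 918 and 869 CPM in DP libraries (log2 fold change -0.84 ± 0.13, adjusted p = 2.51e-04). So was Themis, at 412, 296 and 356 CPM in CD4 SP and 597, 582 and 554 CPM in DP libraries (log2 fold change -0.71 ± 0.13, adjusted p = 6.61e-04). Lck was lower too, at 1517, 1645 and 2242 CPM in CD4 SP and 2572, 2434 and 2754 CPM in DP libraries, a log2 fold change of -0.53 ± 0.15. Its call was lost without DP of WT 24 or CD4 SP of WT 15 (adjusted p up to 0.0661). Tec had 22.2, 19.5 and 21.7 CPM in CD4 SP and 32.9, 28.9 and 31.4 CPM in DP libraries, a log2 fold change of -0.57 ± 0.12. Sla had 647, 611 and 686 CPM in CD4 SP and 825, 793 and 839 CPM in DP libraries, a log2 fold change of -0.35 ± 0.10. Rasgrp1 had 695, 562 and 701 CPM in CD4 SP and 880.2, 816 and 743 CPM in DP libraries, a log2 fold change of -0.33 ± 0.12. Rasgrp1 lost its call without DP of WT 15 or WT 18 or CD4 SP of WT 18, with adjusted p up to 0.139. The NFAT members thus parted, with Nfatc1 and Nfatc2 higher and Nfatc3 lower in CD4 SP cells. With the library number as a block Csk (0.25, adjusted p = 0.0438) was also higher, and Grap2 (-0.27, adjusted p = 0.0427) and Vav1 (-0.25, adjusted p = 0.0491) lower. WT CD4 SP libraries held 1134 to 1543 CPM of Cd8a, beside 2605 to 2715 CPM in WT DP libraries. Their DP-stage genes summed to 2725 to 4627 CPM, beside 7683 to 8933 CPM. The part of remaining DP cells in these sizes was not tested. Of 94 further pathway genes 25 were higher and 21 lower in CD4 SP cells, 48.9% of them beside 39.8% of all genes, with the smallest p for Pik3cd (1.46), Ubash3b (3.44), Nfkb1 (1.28) and Tagap (3.25) and, among the lower, for Cd8a (-1.04), Cd8b1 (-1.24), Trat1 (-0.71) and Sh2d1a (-0.89). Of the genes induced by receptor signals, 10 of 11 were higher.

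**Figure D5:**
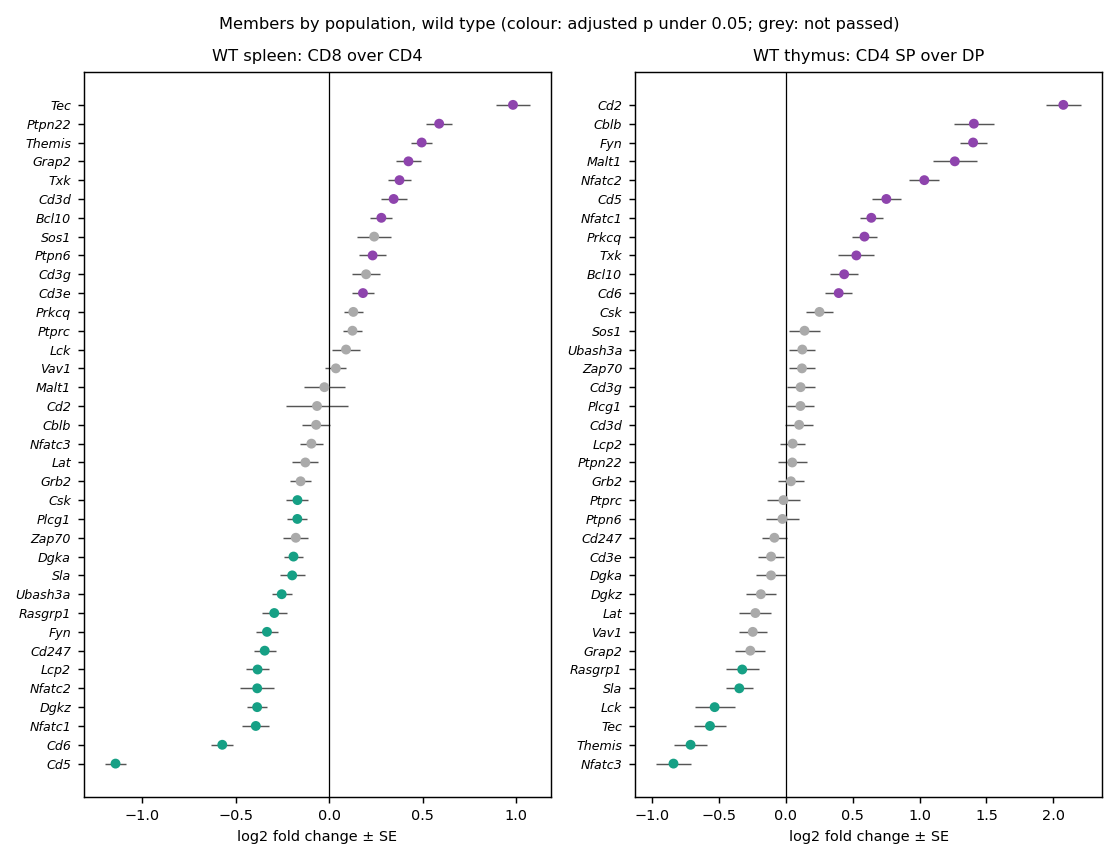
Log2 fold change ± SE of the 36 members between WT populations, CD8 over CD4 in spleen (left) and CD4 SP over DP in thymus (right), 3 libraries each; purple points are higher, green points lower at an adjusted p under 0.05, grey points did not pass. Cd5 is the lowest point on the left at -1.14, and Cd2 the highest on the right at 2.07.

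The members' WT levels were put in order per kilobase of exon (GENCODE M21) within each population. Spleen, thymus CD8 SP and the other thymus libraries were deposited as separate tables that may have been counted differently, so the orders are not compared across tables. In DP cells Lck led with 883 ± 54.8 CPM per kilobase (SD, n = 3), followed by Lat with 540.4 ± 22.2, and the lowest was Malt1 with 2.36 ± 0.126. In CD4 SP cells Lck and Lat led again, with 615 ± 132 and 465 ± 61.00 CPM per kilobase. In spleen CD8 cells Dgka led, with 306 ± 3.03 CPM per kilobase, followed by Ptprc with 181 ± 2.09, Cd3d with 165 ± 10.4, Lat with 161 ± 11.7 and Lck with 146 ± 12.7. In spleen CD4 cells Dgka led with 359 ± 3.43 CPM per kilobase, followed by Lat with 181 ± 12, Ptprc with 171 ± 5.54 and Lck with 141 ± 10.1. Neighbours in this order often did not differ beyond their spread: of 35 neighbouring pairs, the libraries overlapped in 23 in DP, 25 in CD4 SP, 16 in CD8 SP, 19 in spleen CD8 and 22 in spleen CD4 cells.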

How the data were processed

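Gene-level counts were deposited by the authors; reads were aligned to GRCm38 with HISAT2 and counted with HTSeq, per the submitters' processing notes, and the poly(A) libraries mark strand, per the labels' protocols. The sources used here do not state the tool versions, the annotation or the strand setting. Thymus DP and CD4 SP share a table (21983 symbols); spleen and thymus CD8 SP tables list 46095 symbols. Tests were made only within a table, and no column of sample values went unused.

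Each population's 3 CKO and 3 WT libraries were fitted with edgeR 4.0.16 in R 4.3.3 (filterByExpr, TMM, quasi-likelihood F test, Benjamini-Hochberg over all genes, threshold 0.05); intervals are 1.96 SE on the log2 scale. WT populations and the interactions were fitted on the libraries concerned, without a block for the library number. The scripts were tested on simulated data. Alternatives were DESeq2 1.42.0, its size factors, no filter, a strict filter of at least 5 CPM in 3 libraries, the fit without each library in turn, the table's 12 libraries fitted together, the replicate block and sex (male above 50 CPM of Ddx3y). CPM are counts over the library total, without TMM. The block is the number in the titles, which the labels do not tie to a mouse. Deviations of same-numbered libraries correlated at 0.11 to 0.488 in spleen and at 0.145 to 0.279 in WT thymus. These were therefore taken as paired, but only in the fits with the block, which are alternatives. With the block, 11 members were higher and 16 lower between WT spleen populations. Between WT thymus populations 12 were higher and 8 lower. Members called, or not overlapping between genotypes in at least 2 populations, were given library by library, and of other pathway genes up to 4 per direction by smallest p. The members and lists were chosen with earlier results of these data known.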

Additional observations from a re-analysis of the deposited data

Results flagged for a closer look

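The genotype effect differed between spleen CD8 and CD4 cells in the interaction test for Fyn (0.56, CD8 minus CD4, as a log2 fold change), Nfatc1 (0.47) and Dgka (-0.32). For the following pairs of populations every CKO library lay on one side of WT in the first population and on the other side in the second; the difference itself was not tested, and each value is the log2 fold change in the first minus that in the second. Fyn differed by 0.47 between thymus DP and spleen CD4 cells. Nfatc1 differed by 0.65 between thymus DP and spleen CD4 cells and by 0.70 between thymus CD4 SP and spleen CD4 cells. Ubash3a differed by 0.68 between thymus CD4 SP and spleen CD4 cells and by 0.67 between thymus CD4 SP and spleen CD8 cells. Both CD4 SP values rest on a population in which the libraries CKO 14 and CKO 17 stand apart. There Ubash3a had 134.9, 118.9 and 97.7 CPM in CKO 14, 17 and 23, against 94.2, 84.4 and 90.9 CPM in WT 15, 18 and 24. Its log2 fold change in CD4 SP cells was 0.46 with all 3 CKO libraries and 0.14 ± 0.18 (SE) with CKO 23 alone. Nfatc1 had 236.6, 253.9 and 223 CPM in CKO and 215, 214.6 and 209.7 CPM in WT libraries. Its log2 fold change there was 0.23 with all 3 CKO libraries and 0.08 ± 0.18 with CKO 23 alone. The part of CKO 14 and CKO 17 in these differences was not tested further. CKO 17 is the only CD4 SP library whose Cd8a, at 43.4 CPM, followed the sort label, and CKO 23 held 967 CPM. Csk differed by -0.39 between thymus CD8 SP and spleen CD4 cells and by -0.42 between thymus CD8 SP and spleen CD8 cells.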

How the results depend on the processing

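No member that was called in some fit changed direction under the alternatives run, and in the thymus genotype comparisons and their interaction 0 members were called under each. In spleen CD8 cells the count of members lower (1) became 3 with DESeq2, 2 with DESeq2 size factors, 4 without the filter and 2 with all 12 libraries of the table, and 0 to 4 with 1 library left out; members higher (8) numbered 5 to 9 with 1 library left out, the lowest without WT 70, WT 71 or CKO 72. In spleen CD4 cells members higher (9) numbered 7 to 10 and lower (4) 4 to 5 with 1 library left out. For the spleen interaction, members higher (2) numbered 5 without the filter, 5 with the replicate block and 1 to 3 with 1 library left out; members lower (1) numbered 0 with DESeq2 size factors, 0 with the strict filter, 2 with the replicate block and 0 to 1 with 1 library left out. Between WT spleen populations members higher (9) numbered 8 to 9 and lower (14) 10 to 13 with 1 library left out; between WT thymus populations higher (11) numbered 10 to 12 and lower (6) 5 to 10, the highest without CD4 SP of WT 24.

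Over all genes, DP had 2 higher and 1 lower, against 6 and 8 with DESeq2, 0 and 0 with all 12 libraries and 2 lower without the filter; CD4 SP had 0 lower, against 1 with DESeq2; CD8 SP had 5 higher and 12 lower, against 79 and 126 with DESeq2, 180 and 270 without the filter, 2 and 1 with sex as a covariate, and 3 higher with the strict filter. The spleen interaction had 271 higher and 112 lower, against 429 and 208 with DESeq2, 574 and 270 without the filter, and 672 and 411 with the replicate block. With 1 library left out, DP had 0 to 7 higher and 1 to 38 lower, CD8 SP 1 to 11 higher and 0 to 40 lower, and the spleen interaction 188 to 387 higher and 46 to 162 lower. Calls over all genes then ranged from 706 to 1232 higher and 379 to 912 lower in spleen CD4 and from 844 to 1320 higher and 462 to 978 lower in spleen CD8.

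In CKO thymus DP and CD4 SP, same-numbered libraries correlated at 0.0711, 0.228 and -0.195 (CKO 14, 17 and 23), and DP of CKO 23 correlated more with CD4 SP of CKO 14 (0.215), so the numbers are not taken as pairs there; the thymus interaction had 0 members with the replicate block too. In thymus CD8 SP the numbers 1 to 3 only name samples (same-number correlations 0.0528 to 0.145), and the replicate block gave 0 members. Beyond the calls named above the block lost none of the members' calls. All spleen libraries are female, so sex was not fitted there. Leaving out CKO 14 and CKO 17 of CD4 SP together was chosen after seeing the data and leaves 1 CKO library, assumed to vary like the WT group.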
